A study of Mus musculus with 8 samples.

Results

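The effect of MLIF on gene expression in the paws of arthritic mice was read from 4 of the 8 arrays of the study, 2 from mice with collagen-induced arthritis (CIA) given MLIF and 2 from CIA mice without it. The arrays were chosen by their titles, and all 28944 probe sets that are not array controls were compared. Every mouse was a male DBA/1J animal of 8 to 10 weeks, and the study had 4 groups of 8 mice. CIA mice had 150 µg of type II collagen from chicken, mixed with complete Freund adjuvant, injected into the skin of the tail base, and a booster in the incomplete adjuvant at week 3. CIA+MLIF mice had the same immunisation and in addition MLIF through the nose every week, starting 1 week before the first collagen injection. The adjuvant and adjuvant+MLIF groups, injected with adjuvant and no collagen, are quoted here for their levels and for the effect of MLIF without arthritis. Paws were taken 4 weeks after the booster per the sample labels, while the series text places this before the booster. Each group is represented by 2 arrays, which the titles call biological replicates. The labels do not say whether an array holds RNA of 1 mouse or of a pool. P-values rest on the variation between replicate arrays, pooled over all 8 arrays, the adjuvant groups included.

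CIA is a model of rheumatoid arthritis in which T cells and antibodies against type II collagen direct an attack on the joint. Neutrophils and monocytes enter the synovium, fibroblasts of the lining release matrix metalloproteinases, and osteoclasts, the multinucleate cells that dissolve bone, erode the joint margin. MLIF, short for monocyte locomotion inhibitory factor, is a peptide of 5 amino acids secreted by the parasite Entamoeba histolytica and named for its ability to stop monocytes from migrating. The question addressed by the arrays is how the paw of an immunised mouse differs when the peptide is given.

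Values below are log2 signals after quantile normalization, which gives all arrays 1 distribution, and a change is the mean of the CIA+MLIF arrays minus the mean of the CIA arrays on that scale. A gene rose or fell where its adjusted p was under 0.05 (limma, Benjamini-Hochberg over all probe sets). The median standard error of a change was 0.118, from a variance pooled over all 4 groups. The standard deviation of the replicate difference was 0.294 in CIA and 0.246 in CIA+MLIF, but 0.199 in adjuvant and 0.0928 in adjuvant+MLIF. Pooled standard errors and p-values therefore tend to be too small for this comparison. The median signal was 7.03 and that of the array's control entries 6.29, so sizes are poorly determined where a group lies near or under 6.29. Replicates of CIA and of CIA+MLIF correlated across probe sets at 0.988 and 0.991, less closely than the adjuvant pairs at 0.994 and 0.999. As deposited, CIA replicate 1 had a median of 6.50 against 6.92 to 6.96 on the other 7 arrays. The joint genes were present on all 4 arrays: Prg4 (lubricin) lay between 12.75 and 12.93, Comp between 12.06 and 12.15, Acan (aggrecan) between 9.83 and 9.99. Muscle and skin genes were as plainly present, so the excised tissue was not joint alone.

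MLIF was accompanied by a broad change in the arthritic paw. Genes of neutrophils, osteoclasts, matrix-degrading enzymes, activated fibroblasts, cell division and the sebaceous and cornified parts of the skin were lower, and genes of skeletal muscle, its energy metabolism and fat cells were higher. Of the 28944 probe sets 7089 (24.5%) passed the test, 3318 (11.5%) with a rise and 3771 (13%) with a fall. When only the 4 arrays of the comparison were fitted 3627 passed, and 4198 passed with array weights. The CIA+MLIF arrays lay both above or both below the CIA arrays in 56.2% of probe sets (26.2% above, 30.0% below), so arrays that do not overlap are common here. Counted as 1 probe set for each of 19938 genes, 1939 (9.73%) rose and 2802 (14.1%) fell, and the median change was -0.03. On the values as deposited, where the median probe set was 0.24 higher with MLIF, the split was 3315 higher and 942 lower; 3586 of the 7089 passed there too with the same direction. Many falls of moderate size thus passed only after normalization, and counts that moved with it are given beside each group of genes.

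**Figure D1:**
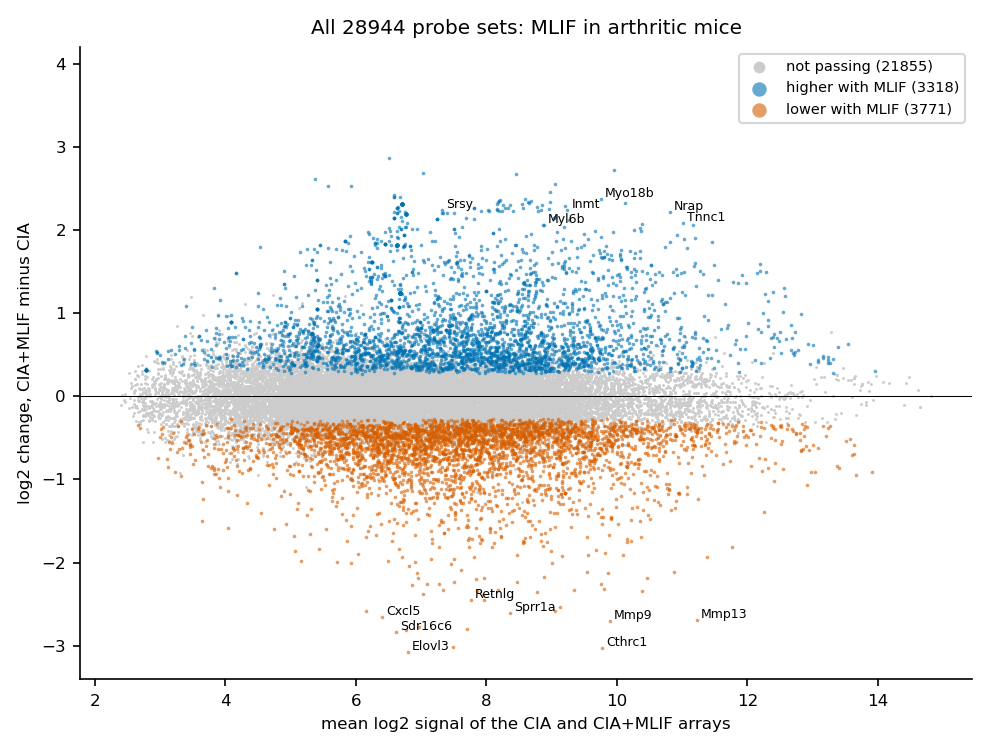
Mean log2 signal over the CIA and CIA+MLIF arrays (x axis) against the log2 change with MLIF (y axis) for 28944 probe sets, with 3318 that rose in blue, 3771 that fell in orange and 21855 that did not pass in grey. Falls reach -3.07 (Elovl3), rises of single named genes 2.37 (Myo18b).

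The 15 named genes with the largest falls came from 4 settings: skin and its glands (Elovl3, Far2, Sdr16c6, Krt25, Krt71, Flg2, Sprr1a), remodelling stroma (Cthrc1, Tnn, Mmp13), neutrophils and the chemokine that draws them (Mmp9, Retnlg, Cxcl5, and Ifitm6, a myeloid interferon-induced membrane protein) and osteoclasts (Atp6v0d2). Cthrc1, a secreted protein of activated fibroblasts, read 11.23 and 11.35 in CIA and 8.33 and 8.18 in CIA+MLIF (change -3.03, SE 0.104, adjusted p 1.72e-05). The 4 adjuvant arrays, at 7.86 to 8.19, were next to the CIA+MLIF arrays. Mmp13, the collagenase of cartilage and bone, read 12.59 and 12.54 in CIA and 9.98 and 9.77 in CIA+MLIF (-2.69, SE 0.101, adjusted p 1.72e-05), and 10.01 to 10.37 without collagen. In both genes the CIA and CIA+MLIF arrays were far apart, and the CIA+MLIF arrays lay close to those of mice without arthritis.

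Of the 15 named genes with the largest rises 12 are genes of muscle: Myo18b, Myl2, Myh7, Trdn, Myoz2, Nrap, Mylk4, Tnnc1, Tmem182, Myl6b, Tnni1 and Nexn, with Inmt, a methyltransferase of indoles, and Cytl1, a secreted protein of cartilage, beside them. Cytl1 read 10.15 and 10.10 in CIA and 12.20 and 12.17 in CIA+MLIF (change 2.06, SE 0.0878, adjusted p 1.72e-05), and 12.31 to 12.43 without collagen. Inmt read 8.04 and 8.20 in CIA and 10.27 and 10.45 in CIA+MLIF (2.24, SE 0.109, adjusted p 1.72e-05). Neither gene had overlapping arrays, and in both the CIA+MLIF arrays lay close to the adjuvant arrays. The remaining one, Srsy, is a Y-linked gene in many near-identical copies, which the probes can hardly separate: all 19 of its probe sets rose (median 2.03), with CIA levels near the control level.

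**Figure D2:**
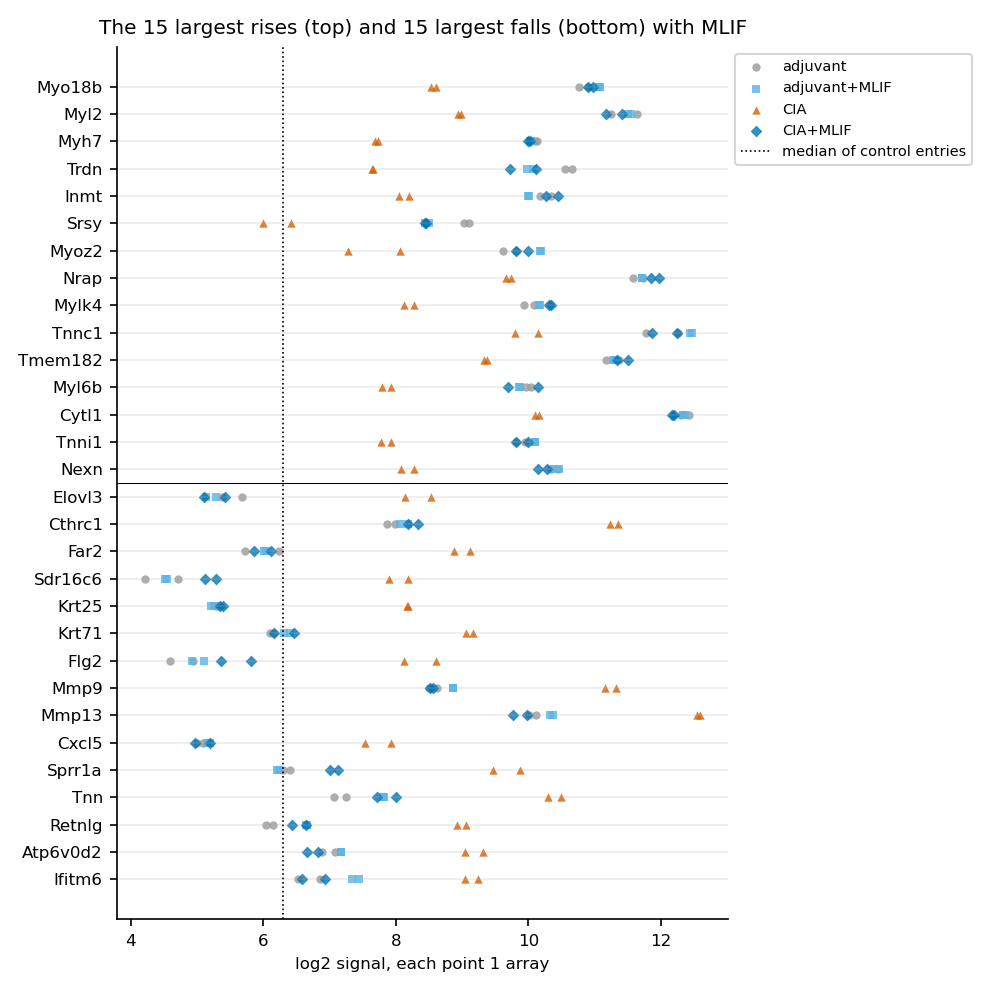
Log2 signal of the 30 named genes on each of the 8 arrays, 1 point per array coloured by group; the dotted line is the median of the control entries (6.29). In every gene the CIA+MLIF arrays lie apart from the CIA arrays, by construction of the choice, and in most of them they lie beside the adjuvant arrays.

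Neutrophil genes were lower as a block. Of 23 measured neutrophil genes 23 fell, against 13% of probe sets, with a median of -1.71 beside -0.03 over all genes. Cxcr2, the receptor by which neutrophils follow chemokines, read 8.70 and 8.30 in CIA and 6.13 and 6.21 in CIA+MLIF (-2.33, SE 0.134). Mpo, the peroxidase of the primary granules, read 9.00 and 9.15 and then 7.40 and 7.36 (-1.70), and the alarmin S100a8 10.84 and 10.93 and then 8.48 and 8.77 (-2.26, SE 0.145, adjusted p 3.24e-05). The same fall held for genes made at quite different stages of the cell's life, from the promyelocyte proteases Elane (-1.59), Ctsg (-1.40) and Prtn3 (-1.17) through the secondary granule proteins Ltf (-1.93), Ngp (-1.90) and Camp (-1.49) to the late markers Mmp8 (-2.26), Ly6g (-2.19) and Retnlg (-2.45). The list mean was 8.94 and 8.95 on the CIA arrays, 7.18 and 7.21 with MLIF, and 6.95 to 7.52 without collagen. In whole tissue, fewer cells of a type and less RNA in each cell cannot be told apart, here and for every cell type below.

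Eosinophil and basophil genes fell as well, but the mast cell genes Kit, Tpsab1, Cma1 and Cpa3 did not. Prg2, the major basic protein of eosinophil granules, read 9.81 and 10.08 in CIA and 7.73 and 7.47 in CIA+MLIF (-2.35, SE 0.13, adjusted p 2.02e-05). Epx, the eosinophil peroxidase, read 7.50 and 7.28 and then 5.94 and 5.56 (-1.64), ending under the control level. The basophil protease Mcpt8 (-1.16) and the histamine-forming enzyme Hdc (-1.29) also fell. Of the 17 mast cell and eosinophil genes 7 fell and 2 rose, and the 2 that rose, Kit (0.53) and the tryptase Tpsab1 (0.74), are mast cell genes; without CIA replicate 2, 4 rose. The mast cell proteases Cma1 (0.16) and Cpa3 (0.18) did not pass.

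The macrophage genes split by kind. Of 17 genes of inflammatory monocytes and macrophages 14 fell and 0 rose (median -0.64; 7 fell on the deposited values). Mpeg1, which codes for the pore-forming perforin-2, read 9.81 and 9.68 in CIA and 8.21 and 8.46 in CIA+MLIF (-1.41, SE 0.116, adjusted p 1.13e-04). Ccr2, the receptor that brings monocytes out of the marrow, read 8.69 and 8.86 and then 7.65 and 7.95 (-0.97, SE 0.121); the CIA+MLIF arrays were also below all 4 adjuvant arrays, at 8.43 to 8.69.

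Of 18 genes of tissue-resident macrophages 6 rose and 1 fell (median 0.23; 3 rose when the arrays were centred in place of quantile normalization). Lyve1, found on perivascular macrophages and lymphatic vessels, read 8.92 and 8.88 in CIA and 10.38 and 10.39 in CIA+MLIF (1.48, SE 0.0812, adjusted p 1.99e-05). The haemoglobin scavenger receptor Cd163 read 8.78 and 8.65 and then 9.90 and 10.01 (1.24, SE 0.0908), and the complement receptor Vsig4 7.19 and 7.27 and then 8.28 and 8.62 (1.22, SE 0.133). In all 3 genes the CIA+MLIF arrays lay above both CIA arrays; Cd163 read 9.70 to 9.75 in the 4 arrays without collagen, a little below the CIA+MLIF pair. F13a1 (0.66), Folr2 (0.68) and Mrc1 (0.29) rose less, and none of the 3 passed after centring. Folr2 also lost the call without CIA+MLIF replicate 2 (0.54) or either CIA replicate (0.68 and 0.69), and Mrc1 without any array other than CIA replicate 2 (0.25 to 0.30). Genes shared by most macrophages did not follow: Csf1r (0.08) and C1qa (0.09) did not pass, and Adgre1, a surface marker of mouse macrophages, fell by 0.56 on the log2 scale (-0.43 and not passing on the deposited values).

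T and NK cell genes moved little as a list, and B and plasma cell genes fell more often. Of 22 T and NK cell genes 4 fell and 1 rose (median -0.05): the interleukin-7 receptor Il7r (-1.24), Gata3 (-1.0), Cd3g (-0.97) and Nkg7 (-0.71) fell and Cd28 (0.43) rose. Nkg7 lost the call without CIA+MLIF replicate 1 (-0.47) or CIA replicate 2 (-0.62), and Cd28 without any array other than CIA replicate 2 (0.27 to 0.47). Cd4 (-0.24) and the regulatory T cell factor Foxp3 (-0.05) did not pass. Of 19 B and plasma cell genes 7 fell and 0 rose, led by the antibody joining chain Jchain, at 9.04 on both CIA arrays and 7.63 and 7.65 with MLIF (-1.40); only 2 of these genes fell on the deposited values, 4 with array weights and 3 in the fit of the 4 arrays alone. Antigen presentation genes were lower by small steps as a list (median -0.21), and 1 of 19 fell (H2-Aa, -0.45, or -0.35 and not passing without CIA+MLIF replicate 1). Both CIA+MLIF arrays lay below both CIA arrays in 11 of the 19 and above them in 1, against 30.0% and 26.2% of probe sets. Of 22 interferon-induced genes 3 rose and 2 fell, none by more than 0.46.

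Among the cytokines that fell were members of the interleukin-1 family. Il1b, the fever and joint damage cytokine of myeloid cells, read 8.31 and 8.98 in CIA and 6.67 and 6.99 in CIA+MLIF (-1.81, SE 0.222, adjusted p 8.29e-04). Il1f9, or interleukin-36 gamma, which epithelium makes, read 8.47 and 8.34 and then 6.07 and 6.23 (-2.25, SE 0.106), while the adjuvant arrays lay at 4.97 to 5.29. Both kept the arrays of the groups apart; with MLIF, Il1b was within the adjuvant range of 6.88 to 7.21 or just below, and Il1f9 stayed above its own. Of 25 proinflammatory cytokines 7 fell and 0 rose (2 on the deposited values), also Il1f6 (-0.88), Il1a (-0.77, or -0.55 and not passing after centring) and Il6 (-1.40), the last at 5.06 and 5.45 in CIA and so below the control level. Tnf, the target of the leading antibody drugs for arthritis, read 6.98 and 7.22 in CIA and 7.02 and 6.50 with MLIF, with overlapping arrays (-0.34, adjusted p 0.216). Il17a read 6.04 and 5.74 and then 5.95 and 5.91 (0.04, adjusted p 0.859), also overlapping and under the control level, so its size could not be determined. Of 21 cytokine receptors 10 fell and 0 rose (5 on the deposited values), Csf3r for the neutrophil growth factor most (-1.71), then Il13ra1 (-1.19) and Il4ra (-1.13). Csf3r is also among the neutrophil genes above.

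Inhibitors of inflammation fell beside its mediators. Tnfaip6, the hyaluronan-binding protein TSG-6, read 10.09 and 9.84 in CIA and 7.67 and 7.93 in CIA+MLIF (-2.17, SE 0.122), still above 6.93 and 6.92 in the adjuvant pair. The receptor antagonist Il1rn (-1.0) and the decoy receptor Il1r2 (-0.94) fell too. Of 22 such genes 10 fell and 4 rose (5 fell on the deposited values; 5 fell and 2 rose in the fit of the 4 arrays alone). The 4 that rose were Tsc22d3 (0.95), also called GILZ, the phosphatase Dusp1 (0.73), Tgfb2 (0.42) and Cd274 (0.36); 2 rose with array weights and without CIA+MLIF replicate 1. Dusp1 lost the call after centring (0.51) and without CIA+MLIF replicate 1 (0.60), and Cd274 without either CIA+MLIF replicate (0.32 and 0.40), CIA replicate 1 (0.28) or either adjuvant+MLIF replicate (0.36). Ptgs2, the inducible cyclooxygenase, read 8.07 and 8.40 and then 6.70 and 6.91 (-1.43, SE 0.138), whereas the secreted phospholipase Pla2g2a (1.27) and the leukotriene C4 synthase Ltc4s (0.98) rose.

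Chemokines changed selectively. Cxcl5, a ligand of Cxcr2 that recruits neutrophils, read 7.93 and 7.54 in CIA and 5.20 and 4.97 in CIA+MLIF (-2.65, SE 0.143, adjusted p 1.81e-05); the 6 arrays outside the CIA group all lay under the control level. The platelet chemokine Ppbp (-1.69) and Ccl3 (-1.11) fell, and the monocyte chemokine Ccl2 (0.11) did not pass. The eotaxins ran the other way: Ccl24 read 6.74 and 6.67 in CIA and 7.74 and 7.88 in CIA+MLIF (1.11), while the eosinophil genes above fell. Ccl11 rose by 0.46, a call lost without either CIA+MLIF replicate (0.46) or CIA replicate 1 (0.41). Of 30 chemokines 10 fell and 4 rose; 5 fell on the deposited values and without CIA+MLIF replicate 2, and 6 fell in the fit of the 4 arrays alone, without CIA+MLIF replicate 1 and with the control entries kept in the normalization. Of 20 chemokine receptors 8 fell and 0 rose (3 on the deposited values).

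The endothelial selectin Sele, on which leukocytes roll, read 8.74 and 8.83 in CIA and 7.08 and 6.97 in CIA+MLIF (-1.76). With it 14 of 19 adhesion molecules fell (4 on the deposited values, 9 with array weights, 8 in the fit of the 4 arrays alone), among them Vcam1 (-0.72) and the leukocyte integrin chains Itgam (-0.58) and Itgb2 (-0.57). The Fc receptors through which antibody complexes excite myeloid cells and their adaptors gave 11 falls of 15 (2 on the deposited values), with Fcgr4 (-1.0), Tyrobp (-0.99) and Fcer1g (-0.92) first. Of 12 lectins of the Dectin cluster, a gene family picked after its values were seen, 9 fell (5 on the deposited values), most of all Clec4d, at 8.24 and 8.21 in CIA and 5.82 and 5.86 with MLIF (-2.38). Of 21 complement and acute phase genes 11 fell and 2 rose (5 fell on the deposited values and 7 without CIA+MLIF replicate 1); Saa3, the acute phase protein made in inflamed tissue, read 9.59 and 10.00 and then 7.91 and 8.19 (-1.75). Of 18 NF-kappaB subunits and inhibitors 5 fell and 0 rose, led by Bcl3 (-1.01); 1 fell on the deposited values, 8 after centring and 2 in the fit of the 4 arrays alone.

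Osteoclast genes fell, the effectors of bone resorption most. Acp5, the tartrate-resistant acid phosphatase, read 11.60 and 11.50 in CIA and 9.34 and 9.40 in CIA+MLIF (-2.18, SE 0.101), and Ctsk, the cathepsin that digests bone collagen, 11.94 and 11.93 and then 9.74 and 9.91 (-2.11, SE 0.0988). The proton pump subunit Atp6v0d2 read 9.04 and 9.32 and then 6.65 and 6.82 (-2.45, SE 0.126). None of these overlapped, and with MLIF each lay in or next to the range of the adjuvant arrays (9.22 to 9.63 for Acp5). The fusion proteins Dcstamp (-1.57) and Ocstamp (-1.33), the integrin Itgb3 (-1.27) and the receptor Oscar (-1.26) fell too.

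The genes upstream of these moved less. Tnfsf11, or RANKL, which calls osteoclasts into being, read 8.64 and 8.45 in CIA and 8.04 and 7.97 with MLIF (-0.54, adjusted p 0.00825; -0.41 and not passing on the deposited values), and its decoy receptor Tnfrsf11b, osteoprotegerin, 7.68 and 8.00 and then 8.18 and 8.52 (0.51, SE 0.145, adjusted p 0.0375). The call of Tnfrsf11b was lost without CIA+MLIF replicate 2 (0.34), CIA replicate 1 (0.35) or any 1 of the adjuvant and adjuvant+MLIF arrays (0.51). The master factor Nfatc1 did not pass (-0.31), though it did after centring (-0.41). In all 14 of 21 osteoclast genes fell and 1 rose, osteoprotegerin (median -0.76).

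Bone-forming genes were lower too: 10 of 13 osteoblast genes fell (median -0.65), from Ibsp, bone sialoprotein (-1.23), through the alkaline phosphatase Alpl (-0.87) to the transcription factor Sp7 (-0.65). The osteocyte gene Dmp1 fell (-1.14), but Sost, the osteocyte's brake on bone formation, read 7.39 and 7.41 in CIA and 7.99 and 8.28 with MLIF (0.74, adjusted p 0.00213). Of 10 osteocyte genes 4 fell and 1 rose, and 2 fell on the deposited values.

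Matrix metalloproteinases, which cut collagens and other matrix proteins, fell in 12 of 20 measured genes and rose in 0 (median -0.69). Mmp3, stromelysin-1, read 10.90 and 10.95 in CIA and 8.71 and 8.89 in CIA+MLIF (-2.12, SE 0.0945), at the level of the adjuvant arrays (8.75 to 8.84). Mmp9 of neutrophils and osteoclasts read 11.33 and 11.15 and then 8.56 and 8.51 (-2.70, SE 0.0982), and the membrane-bound Mmp14 fell by 1.26 on the log2 scale. Aggrecanases parted: Adamts4 fell (-1.28) and Adamts5, at 9.59 and 9.36 in CIA and 10.04 and 10.00 with MLIF, rose (0.55, adjusted p 0.00716), though not in the fit of the 4 arrays alone. Of the inhibitors, Timp1 fell with the enzymes, from 10.93 and 10.99 to 8.50 and 8.78 (-2.32, SE 0.123), while Timp4 rose from 7.08 and 7.22 to 8.62 and 8.79 (1.55, SE 0.131) and Timp3 rose by 0.60 (0.38 and not passing after centring).

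The promoters of Mmp3 and Mmp13, which fell by similar amounts, each hold the AP-1 motif TGANTCA, the site for Fos and Jun proteins, within the 100 bases before the start. They are shown 5′ to 3′ from RefSeq (GRCm38.p6), both on the plus strand, chr9:7445722-7445821 for Mmp3 and chr9:7272414-7272513 for Mmp13, with the motif in capitals.
Mmp3: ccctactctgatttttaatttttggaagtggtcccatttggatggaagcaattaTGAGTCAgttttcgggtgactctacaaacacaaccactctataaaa
Mmp13: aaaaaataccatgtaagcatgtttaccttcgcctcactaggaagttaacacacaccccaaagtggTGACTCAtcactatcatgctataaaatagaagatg
The motif starts 46 bases before the start in Mmp3 and 35 in Mmp13. The RefSeq promoters used here cover 15 metalloproteinase genes with 18 promoters, and 6 of these (33.3%) hold it on either strand within 250 bases, those of Mmp3, Mmp7, Mmp10, Mmp12, Mmp13 and Mmp20, of which Mmp3, Mmp13 and, except on the deposited values, Mmp12 fell. Over 19177 promoters the share was 6.04%, over 2630 promoters of genes that fell 8.29%, and over 2009 of genes that rose 6.07%. A match in the letters is a description and not a bound site.

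Among the AP-1 genes themselves the directions were mixed: Fosl1 (-0.94) fell, and Jun (0.56), Jund (0.51) and Fos (0.40) rose. Jun lost the call without CIA+MLIF replicate 1 (0.54) and Fos after centring (0.31), and none of these 3 passed in the fit of the 4 arrays alone. Of 24 immediate-early genes 7 rose and 3 fell (median 0.06), and 4 rose on the deposited values and in the fit of the 4 arrays alone. Egr1 rose by 0.75 and the orphan receptor Nr4a1, at 9.47 and 9.34 in CIA and 10.67 and 10.21 with MLIF, by 1.03. Myc fell from 9.09 on both CIA arrays to 8.28 and 8.27 (-0.82).

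Genes of activated fibroblasts and of the collagen matrix fell, while general fibroblast and basement membrane genes moved both ways. Of 28 genes of activated stroma 21 fell and 0 rose (median -0.66; 13 fell on the deposited values). Postn, periostin, read 11.66 and 11.46 in CIA and 9.03 and 9.41 in CIA+MLIF (-2.34, SE 0.161, adjusted p 4.37e-05). Tnn, tenascin-W, read 10.49 and 10.30 and then 7.71 and 8.01 (-2.53, SE 0.128). For Postn the CIA+MLIF arrays lay close to the adjuvant pair, at 9.22 and 9.56. For Tnn they lay close to adjuvant+MLIF (7.80 and 7.82) and above adjuvant (7.07 and 7.24). The Wnt-binding proteins Sfrp2 (-1.36) and Sfrp1 (-0.90) and Fap (-1.30), the surface protease of invasive fibroblasts, fell too, but Clic5 (1.22) and Cd55 (0.90), which mark the synovial lining layer, rose, and Prg4 of the same layer did not pass (0.07). Of 21 synovial and general fibroblast genes 7 fell and 4 rose (median -0.14), and of 16 basement membrane genes 4 fell and 2 rose (median -0.02; 1 fell on the deposited values and in the fit of the 4 arrays alone, and 2 with array weights, without CIA+MLIF replicate 1 or without either adjuvant+MLIF replicate).

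Of 19 fibrillar and associated collagens 15 fell and 0 rose (median -0.77). Col12a1, at 11.04 and 11.17 in CIA and 9.63 and 9.60 with MLIF, fell most (-1.49). The main bone and skin collagen Col1a1 read 14.47 and 14.25 and then 13.44 and 13.47 (-0.90). The enzymes that fold and link collagen fell in 16 of 21 (median -0.40), Plod2 by most (-1.20), followed by P3h1 (-1.16) and the chaperone Serpinh1 (-1.08); 6 of them fell on the deposited values, 10 with array weights or without either adjuvant+MLIF replicate and 9 in the fit of the 4 arrays alone. Of 13 small leucine-rich proteoglycans, which space collagen fibrils, 8 fell (5 on the deposited values): Lum, lumican, read 12.66 and 12.67 and then 10.79 and 10.91 (-1.82, SE 0.0871), and Kera, keratocan, 9.80 and 10.06 and then 7.99 and 8.14 (-1.87).

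Cartilage showed no common direction: of 25 genes 7 rose and 6 fell (median 0.02; 2 fell on the deposited values, with array weights and in the fit of the 4 arrays alone). Beside Cytl1 the largest rise was that of Col10a1, the collagen of hypertrophic cartilage, at 8.40 and 8.55 in CIA and 9.64 and 9.54 in CIA+MLIF (1.12, SE 0.0941, adjusted p 1.25e-04), with Ucma (0.80) and Snorc (0.65). Col11a1 (-1.27) and Col11a2 (-0.82) fell, and Col2a1, the murine form of the immunising collagen, read 10.06 and 9.93 and then 9.71 and 9.57 (-0.36, adjusted p 0.0278). The call of Col2a1 was lost without CIA+MLIF replicate 2 or CIA replicate 1 (-0.29 in both) or either adjuvant+MLIF replicate (-0.35 and -0.36). The structural genes Acan (-0.02) and Comp (-0.01) did not pass. Of 12 tendon genes 6 fell and 1 rose.

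Skeletal muscle gave the most uniform rise. Of 18 fast fibre genes 18 rose (median 1.18) against 11.5% of probe sets, of 15 slow fibre genes 13 rose (median 1.48), and of 24 genes of the triad and sarcomere frame 22 rose (median 1.49), with 0 falls in the 3 lists. Myh7, the slow myosin, read 7.69 and 7.73 in CIA and 9.99 and 10.02 in CIA+MLIF (2.30, SE 0.082, adjusted p 1.72e-05). Myh4, the fastest myosin, read 10.54 and 10.61 and then 12.12 and 11.98 (1.47, SE 0.114). Ryr1, the calcium release channel, read 10.14 and 10.13 and then 11.75 and 11.58 (1.53). In all 3 the CIA+MLIF arrays stood clear of the CIA arrays and close to the adjuvant arrays, at 10.02 to 10.13 for Myh7.

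The values varied within each muscle list, from -0.03 to 2.33 for slow fibre genes, 0.52 to 1.51 for fast fibre genes and -0.23 to 2.03 for the triad and sarcomere frame. Myl2 (2.33), Myoz2 (2.23), Tnnc1 (2.09), Tnni1 (2.06) and Csrp3 (1.97) are slow or stress-sensing genes, and Atp2a1 (0.59), Pvalb (0.69), Acta1 (0.62) and Ckm (0.70), abundant genes of fast fibres or all fibres, rose less; no test compares the lists. Myo18b and Trdn were read by many probe sets, and 19 of 20 and 18 of 19 of these rose; the Myo18b probe set with the highest signal did not (0.15). Of 19 regeneration and atrophy genes 10 rose and 1 fell: the atrophy ligases Fbxo32 (1.12) and Trim63 (1.16), the acetylcholine receptor Chrna1 (1.46), Musk (1.36), embryonic Myh3 (1.26) and the myogenic factors Myf6 (1.63) and Myod1 (1.05) rose, while Pax7 (0.18) and Myf5 (0.17) of satellite cells did not pass.

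Promoters of muscle genes are known to hold MEF2 sites, searched here by a loose pattern, CTA and TAG with any 4 bases between them. Myoz2, whose 2.23 is among the largest rises, and Ldb3, a Z-disc protein that rose by 1.52, each have a match to this pattern within 100 bases of a start. They are shown 5′ to 3′ from RefSeq (GRCm38.p6) on the minus strand, chr3:123034988-123035087 for Myoz2 and chr14:34588608-34588707 for 1 of the 2 Ldb3 promoters, with the match in capitals. The 4 free bases are TATA in Myoz2 and TTCT in Ldb3.
Myoz2: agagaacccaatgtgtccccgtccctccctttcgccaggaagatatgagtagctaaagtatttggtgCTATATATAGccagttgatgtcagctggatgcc
Ldb3: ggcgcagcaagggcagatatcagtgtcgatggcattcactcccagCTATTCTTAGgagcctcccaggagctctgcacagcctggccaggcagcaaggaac
The motif starts 33 bases before the start in Myoz2 and 55 in Ldb3. It stood in 5 of 57 promoters (8.77%) of the 41 genes of the 3 muscle lists that the table holds, those of Ldb3, Myoz2, Smpx, Ttn and Xirp2, all of which rose. The share was 4.63% in promoters of genes that rose, 2.47% in those of genes that fell and 3.1% in all promoters. Because any 4 bases count, a match need not be a MEF2 site, in Ldb3 or in these shares.

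The enzymes that fuel muscle rose with it. Of 26 glycolysis and glycogen genes 16 rose and 5 fell (median 0.57; 1 fell on the deposited values and 3 with array weights). The muscle forms rose, such as Gys1, glycogen synthase, at 9.14 and 8.99 in CIA and 10.76 and 10.77 in CIA+MLIF (1.70, SE 0.0946, adjusted p 2.08e-05), the insulin-dependent transporter Slc2a4 (1.49), Pfkm (1.37), Eno3 (1.37) and Pgam2 (1.22). The forms of other tissues fell, Slc2a3 (-0.77), the leukocyte hexokinase Hk3 (-0.76), Pgam1 (-0.54) and Pfkl (-0.51) among them. The same held for the respiratory chain, where 19 of 30 genes rose and 1 fell (10 rose after centring, 12 in the fit of the 4 arrays alone): the muscle subunits Cox8b (1.55), Cox7a1 (1.51) and Cox6a2 (1.46) rose, and the general subunit Cox6a1 fell (-0.42), a call lost without CIA+MLIF replicate 2 (-0.33), CIA replicate 1 (-0.32) or either adjuvant+MLIF replicate (-0.42). Ppargc1a, which drives the making of mitochondria, read 6.54 and 6.46 and then 7.92 and 7.81 (1.37, adjusted p 9.28e-05). Of 26 genes of fatty acid oxidation and the citrate cycle 14 rose and 0 fell, led by Fabp3 (1.48) and Cs (1.03) beside Ppargc1a; 8 rose on the deposited values and after centring, 9 with array weights or without either adjuvant+MLIF replicate, and 7 in the fit of the 4 arrays alone.

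Fat cell genes rose in 17 of 22 (median 0.79) and 1 fell, Cidea (-0.60; -0.41 and not passing on the deposited values). Plin1, the coat protein of the lipid droplet, read 8.76 on both CIA arrays and 10.17 and 10.13 in CIA+MLIF (1.39, SE 0.082, adjusted p 2.23e-05), and 9.92 to 10.20 without collagen. Lpin1 (1.54), Pck1 (1.27), the triglyceride lipase Pnpla2 (1.16) and leptin, Lep (1.13), rose, while Adipoq (0.47, adjusted p 0.0976) did not pass.

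The skin genes set the CIA paws, with or without MLIF, apart from those of the adjuvant mice, and within the CIA mice the parts of the skin moved differently. The mean of 29 genes of the suprabasal and cornified epidermis was 9.61 and 9.60 in CIA and 8.57 and 8.59 with MLIF, but 6.09 to 6.15, under the control level, in the 4 adjuvant arrays. Of these genes 22 fell and 0 rose (median -0.95). Krt2 read 12.45 and 12.23 in CIA and 10.45 and 10.38 in CIA+MLIF (-1.93, SE 0.107, adjusted p 2.05e-05), and Flg2, a filaggrin-like barrier protein, 8.12 and 8.61 and then 5.35 and 5.81 (-2.78, SE 0.212). Krt10, the partner of Krt1, read 13.03 and 12.79 and then 11.88 and 11.92 (-1.01, adjusted p 0.00506). Krt1 and Krt9 did not pass: Krt1 read 12.99 and 13.39 and then 12.90 and 12.86 (-0.31, adjusted p 0.287), and Krt9, the keratin of paw pads, 10.82 and 11.01 and then 10.92 and 11.14 (0.12, adjusted p 0.587). Krt1 stayed on both CIA+MLIF arrays below both CIA arrays by a small step, and the arrays of Krt9 overlapped.

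Families of hair and gland genes, grouped after their values were seen, went in opposite directions. Of 8 keratins of the inner root sheath, the sleeve that guides the growing hair, 5 fell and 0 rose (median -1.18), with Krt25 at 8.18 and 8.17 in CIA and 5.34 and 5.39 with MLIF (-2.81, SE 0.0825) and Krt71 at 9.16 and 9.06 and then 6.46 and 6.16 (-2.80, SE 0.116). Of 13 keratins of the hair shaft 8 rose and 2 fell (median 0.87). Krt33b read 9.11 and 8.89 and then 10.63 and 10.79 (1.71, SE 0.124, adjusted p 5.62e-05) and Krt31 8.14 and 7.72 and then 9.48 and 9.33 (1.47), while Krt32 (-0.96) and Krt82 (-0.81) fell. Inner root sheath keratins ended at the adjuvant level, and hair shaft keratins moved further from it.

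The keratin-associated proteins, which cement hair keratin, split by family: of 7 members of families 6, 7, 8 and 21, 6 rose and 0 fell (median 1.23), of 5 members of family 5, 4 fell and 0 rose (median -1.43), and over all 44 measured 15 rose and 12 fell (14 and 6 on the deposited values). Krtap7-1 read 10.00 and 10.49 in CIA and 12.18 and 12.12 in CIA+MLIF (1.91, SE 0.158, adjusted p 1.14e-04), against 5.76 to 6.43 without collagen. Krtap5-2 read 8.92 and 8.98 and then 6.81 and 6.69 (-2.20, SE 0.0892). These genes are close copies in clusters, so single members are uncertain. The wound keratins Krt6b (1.5, SE 0.286, adjusted p 0.0074), Krt16 (1.05) and Krt6a (0.57) rose as Krt17 fell (-1.32); Krt6b was uneven with MLIF, at 8.79 and 7.74, and with array weights or without CIA+MLIF replicate 1 only 1 of these 4 rose. Krt6a did not pass without CIA replicate 1 either (0.49).

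The lipid genes of the sebaceous gland fell in 13 of 16 and rose in 1 (median -0.96; 8 fell and 2 rose on the deposited values). Elovl3, which lengthens fatty acids for skin lipid, read 8.14 and 8.53 in CIA and 5.41 and 5.11 in CIA+MLIF (-3.07, SE 0.171, adjusted p 2.08e-05), and Far2, which makes wax alcohols, 9.11 and 8.88 and then 5.86 and 6.11 (-3.01, SE 0.178). Both ended under the control level, as in the adjuvant arrays, so the size of the fall is poorly determined. Scd1, a desaturase that fat cells also make, rose from 11.88 and 12.18 to 13.11 and 12.99 (1.02). Of 16 genes of epidermal barrier lipids 14 fell and 0 rose (9 fell on the deposited values), among them Fa2h (-1.96), Elovl4 (-1.91) and Ugcg (-1.59).

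**Figure D3:**
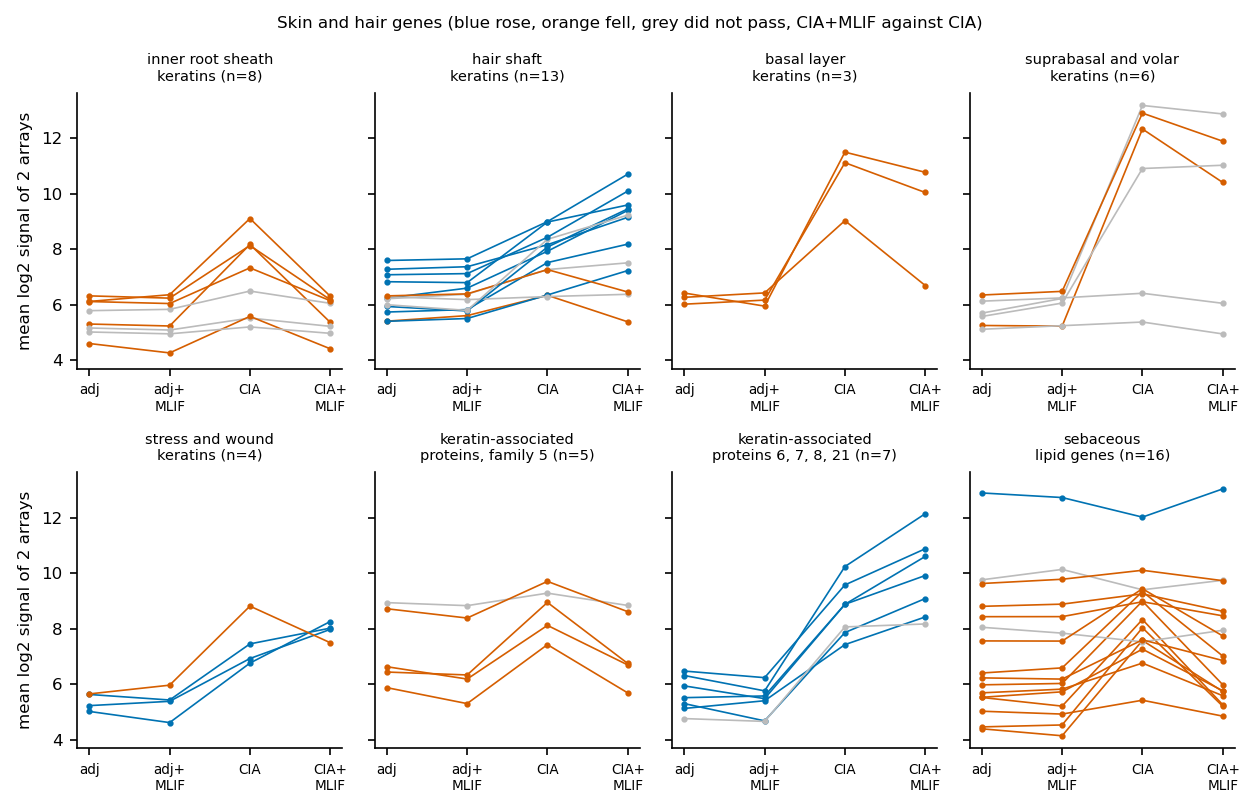
Group mean log2 signal of each member of 8 skin families in the adjuvant, adjuvant+MLIF, CIA and CIA+MLIF groups, 1 line per gene. Inner root sheath keratins fall from CIA to CIA+MLIF (family medians 6.91 and 5.71), hair shaft keratins climb (7.93 and 9.15), and the adjuvant groups are low in both.

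The muscle, skin and immune changes were all read on the same 2 CIA+MLIF arrays, since the group has no others. Whether they vary together cannot be seen with so few arrays. Beside the fall of the neutrophil mean from 8.94 and 8.95 to 7.18 and 7.21, the triad and sarcomere mean rose from 9.78 and 9.75 to 11.08 and 11.09 and the cornified epidermis mean fell as given above. What part the shares of muscle and skin in the RNA have in the other changes was not tested.

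Genes of dividing cells fell in 24 of 29 (median -0.71; 11 on the deposited values), with Rrm2, a maker of DNA precursors, at 7.92 and 7.68 in CIA and 6.56 and 6.21 in CIA+MLIF (-1.41), Top2a (-1.36) and Mki67 (-1.35) first and no rise. Actin and motility genes fell in 15 of 25 (9 on the deposited values): Fscn1 (-1.34), Cnn2 (-1.17), Tmsb10 (-1.09), the leukocyte GTPase Rac2 (-0.99), and Actb, often used as a reference gene, from 13.84 and 13.81 to 13.28 and 13.35 (-0.52). Of 29 genes of the secretory pathway 13 fell and 0 rose, Kdelr3 first (-1.02); 5 fell on the deposited values, and 8 in the fit of the 4 arrays alone and without CIA+MLIF replicate 1. Hmox1, which breaks down haem and rises under oxidative stress, read 10.62 and 10.58 and then 8.69 and 8.81 (-1.85, SE 0.0876). It was the lowest of 28 antioxidant and metallothionein genes, of which 10 fell and 6 rose (median -0.14). Angptl4 (-1.46) and Hif1a (-0.97), the oxygen sensor's factor, fell. The vascular growth and hypoxia genes had no common direction: of 23 measured, 8 rose and 6 fell (median 0.16).

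Of 17 circadian genes 10 rose and 0 fell (median 0.44), most of them repressors of the loop: Cry2 read 8.76 and 8.53 in CIA and 9.74 and 9.78 in CIA+MLIF (1.12), with Bhlhe41 (0.84), Per3 (0.72) and Per2 (0.57), while the activator Arntl (0.14) did not pass. The hour of collection is not in the labels. Of 19 glucocorticoid-responsive genes 9 rose and 4 fell (median 0.39). Zbtb16 read 8.81 and 8.62 and then 9.99 and 10.01 (1.29, adjusted p 6.24e-05), and Tsc22d3 (0.95), Pdk4 (0.86) and Klf15 (0.85) rose. Fkbp5 (0.29), a common readout of the same hormone, did not pass, and the 4 that fell, Lcn2 (-1.47), Angptl4, Mt2 (-0.78) and Mt1 (-0.51; not passing in the fit of the 4 arrays alone), also answer to inflammation, lipid or metals.

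**Figure D4:**
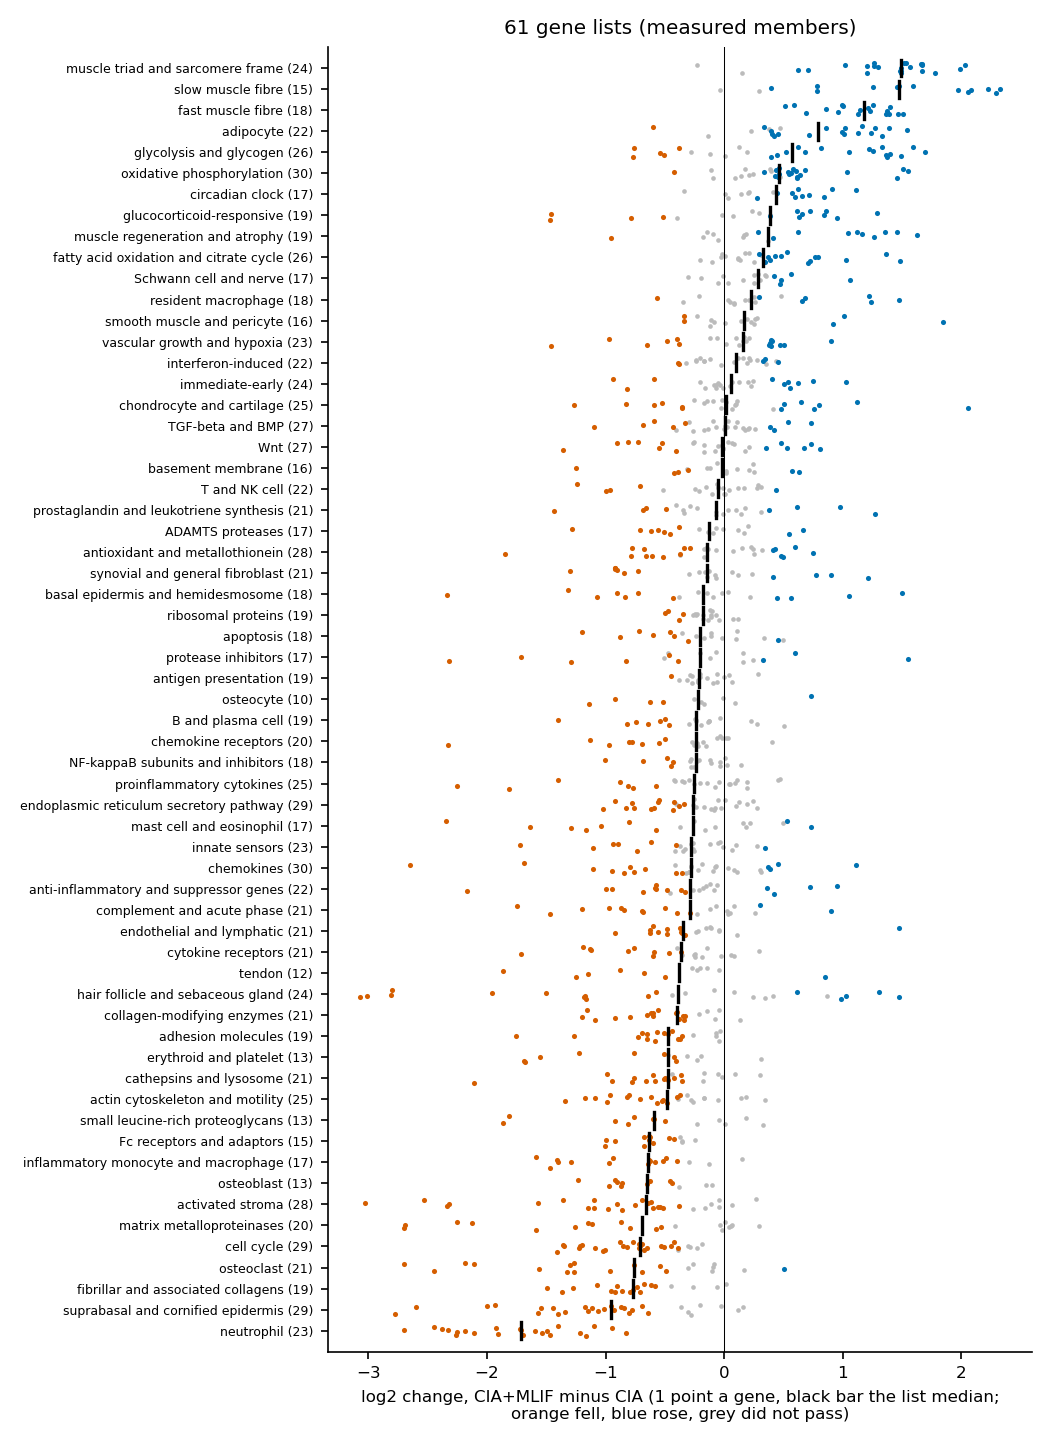
Log2 change with MLIF in CIA mice for the members of 61 gene lists, 1 point per gene and a black bar at each list's median. The triad and sarcomere list (median 1.49) and the slow fibre list (1.48) stand at the upper end, the neutrophil list (-1.71) at the lower end.

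The array also reads 305 microRNA precursors, mostly under the control level. Of these 16 rose and 31 fell (median -0.04), smaller shares than the 11.5% and 13% of all probe sets. Only 12 of the precursors that rose or fell had a CIA or CIA+MLIF mean above the control level. Mature sequences of the precursors discussed below are shown 5′ to 3′ from RefSeq (GRCm38.p6). The seed, bases 2 to 8, is in capitals, so that members of 1 cluster can be compared. The cluster of Mir17 is active in dividing cells, Mir126a in endothelium and Mir1a-1 in muscle, and Mir29a targets collagens.
miR-17-5p: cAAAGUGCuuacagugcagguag
miR-20a-5p: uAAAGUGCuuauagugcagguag
miR-18a-5p: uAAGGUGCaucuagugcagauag
miR-19a-3p: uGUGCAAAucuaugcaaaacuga
miR-19b-3p: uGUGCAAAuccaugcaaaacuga
miR-126a-3p: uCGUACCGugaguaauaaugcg
miR-29a-3p: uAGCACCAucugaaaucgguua
miR-1a-1-5p: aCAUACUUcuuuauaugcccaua
The first pair shares a seed, and so do both miR-19 forms. Of Mir1a-1 only the 5p strand is shown, so its seed does not stand for that of the 3p strand of the same precursor. Of 5 precursors of the Mir17 cluster 4 fell (median -0.84), and 0 on the deposited values, 1 after centring, 2 with array weights, 2 in the fit of the 4 arrays alone and 1 without CIA+MLIF replicate 2. Mir19a (-0.94) was among them, with Mir20a (-0.87) and Mir18 (-0.84). Mir20a lost the call without CIA+MLIF replicate 2 (-0.73) or CIA replicate 1 (-0.82), and Mir18 without CIA+MLIF replicate 2 (-0.61), CIA replicate 2 (-0.50) or either adjuvant replicate (-0.85). Mir17 itself did not pass (-0.37, adjusted p 0.221), except without CIA replicate 2 (-0.65). Mir126a had means of 5.55 in CIA and 3.95 in CIA+MLIF (-1.60, adjusted p 8.89e-05), and Mir29a fell by 0.85 on the log2 scale. Of 5 muscle precursors 3 rose, among them Mir1a-1 with means of 4.95 and 6.23 (1.28). These means are all under the control level of 6.29, so their sizes are not well determined.

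Fewer probe sets changed with MLIF in mice without collagen than in arthritic mice. For lists under the control level without collagen, such as the cornified epidermis (mean 6.09 to 6.15), a fall there could not be measured. In the adjuvant mice 365 probe sets (1.26%) passed, 25 (0.0864%) higher and 340 (1.17%) lower. The difference between the effect of MLIF in CIA and its effect without collagen, tested as an interaction, passed for 5037 probe sets (17.4%), 2493 (8.61%) of them more positive and 2544 (8.79%) more negative in CIA. The 2 effects share no arrays. The count of 365 was fragile: it was 0 on the deposited values (1107 at an unadjusted p under 0.05, limma), 0 without adjuvant replicate 1 (1692 unadjusted), 0 without adjuvant+MLIF replicate 1 (1336) or 2 (1345), 7 without adjuvant replicate 2, and 578 without either CIA replicate. The interaction count was 2095 on the deposited values and 2319 to 6843 without 1 array.

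The most negative interactions fell on granulocyte genes. Prg2 read 7.23 and 7.35 in adjuvant and 8.67 and 8.74 in adjuvant+MLIF, a rise of 1.41 (adjusted p 0.0096), against the fall in CIA described above; the interaction was -3.76 (SE 0.183, adjusted p 2.23e-05). S100a8 read 8.21 and 8.57 and then 9.39 and 9.35 without collagen (0.98, adjusted p 0.0198), with an interaction of -3.24. S100a9 read 7.87 and 8.79 and then 9.66 and 9.68, which did not pass (1.34, adjusted p 0.0754), and its interaction was -3.45. For all 3 genes MLIF was accompanied by a lower signal in the arthritic paw and a higher one in the paw without collagen, where the arrays did not overlap. Of 23 neutrophil genes 23 had a negative interaction that passed, 21 were higher with MLIF in adjuvant mice and 7 passed there (S100a8, Mpo, Camp, Ngp, Ltf, Lcn2 and Prtn3), calls that are lost wherever the count of 365 goes to 0.

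Of 24 immediate-early genes 9 had a positive interaction that passed, against 8.61% of probe sets, and 2 a negative one. Nr4a1 read 10.26 and 9.96 in adjuvant and 9.30 and 9.28 in adjuvant+MLIF (-0.83, adjusted p 0.0645), against its rise in CIA, and the interaction was 1.86 (adjusted p 0.00131). Of the 24 genes 4 (Fos, Fosb, Egr1 and Btg2) fell in the adjuvant mice, against 1.17% of probe sets, and the list median there was -0.24; these calls too are lost wherever the count of 365 goes to 0. The 6 most positive interactions were Trdn (2.85), Srsy (2.84), Inmt (2.49), Krtap7-1 (2.46), Myh7 (2.39) and Jph1 (2.29). Jph1, which joins the triad membranes, read 11.73 and 11.16 in adjuvant and 11.13 and 11.16 in adjuvant+MLIF, which did not pass (-0.30, adjusted p 0.637), and 9.48 and 9.28 in CIA and 11.41 and 11.32 in CIA+MLIF (1.99). Krtap7-1 stood out among the 6, since its level without collagen was near or under the control level and with MLIF the CIA arrays lay further from the adjuvant groups.

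**Figure D5:**
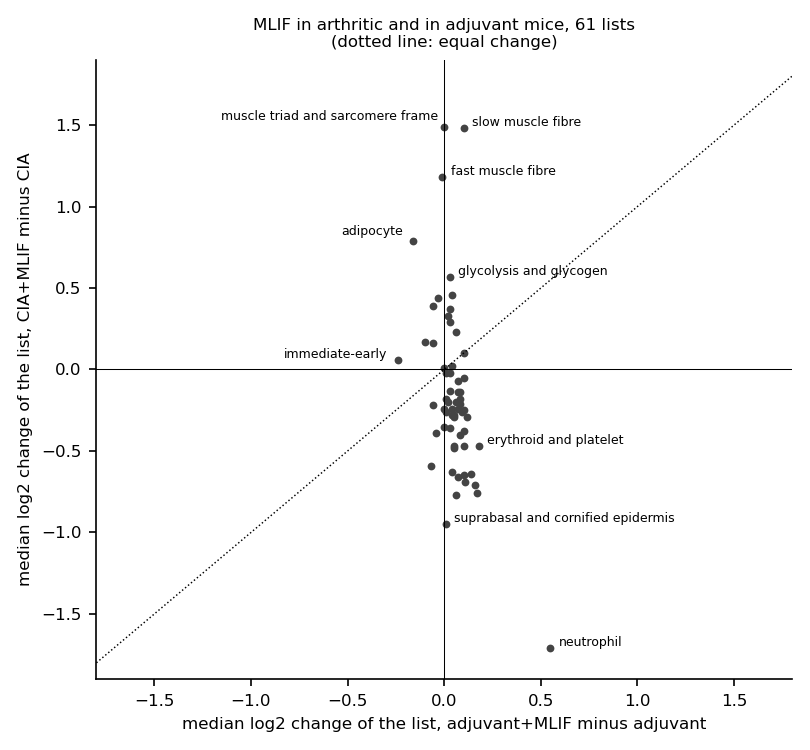
Median log2 change with MLIF of each of the 61 gene lists in adjuvant mice (x axis) and in CIA mice (y axis). The neutrophil list is at 0.55 and -1.71, and the lists spread far more along the y axis than along the x axis.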

How the data were processed

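Paw RNA (300 ng per array, biotin-labelled, per the labels) was hybridised to the Affymetrix Mouse Gene 1.0 ST array, 8 in all and 4 in the comparison reported. The deposited table holds log2 signals, 1 per probe set and array; that they are log2 was read from the values. How it was background-corrected, summarised and normalized, and with what software, is not given in the sources used here. Of 35557 entries 6613, a leading run without annotation, were taken as controls and left out. Of the 28944 others, 21789 carry 1 symbol in the platform annotation (21698 matched RefSeq by gene ID), 1621 several and 5534 none.

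The values were quantile-normalized over the 8 arrays and fitted with 1 limma model of 4 group means (limma 3.58.1 under R 4.3.3), whose tests had 4 residual degrees of freedom and 3.81 from the prior. Tests were two-sided, with Benjamini-Hochberg adjustment over all probe sets and a threshold of 0.05. The number of arrays, 2 per group, limits the precision. In simulated data, with 28944 probe sets tested and 50 changed at each size, the MLIF comparison found 14 of those changed by 0.5 on the log2 scale, 39 of those changed by 1, 48 for 2 and 50 for 3, and made 6 false calls. The simulated noise was independent, with the same spread in all groups. In the data the standard deviation of the replicate difference was 0.294 in CIA, 0.246 in CIA+MLIF, 0.199 in adjuvant and 0.0928 in adjuvant+MLIF. The simulated counts therefore do not give the error rate of the real comparison.

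Individually named are the 15 largest rises and falls among passing probe sets with 1 symbol and arrays that do not overlap, 1 per gene, and the 6 largest interactions each way. Clone and model names, chemosensory receptors, antigen receptor segments and small RNAs were passed over (406 passing). The 61 lists (1290 members written, 1187 measured) use the probe set with the highest mean. Lists can share genes, so their counts are not independent. Mmp9 is in the neutrophil, osteoclast and metalloproteinase lists, and Lcn2 in the neutrophil, complement and glucocorticoid-responsive lists. The members and lists were chosen with earlier results of these data known, and list members and families named for their role were chosen after their values were seen. Replicate numbers do not pair the arrays.

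Alternatives were the deposited values, centring, leaving out the dimmest tercile, averaging per gene, a trended robust variance, array weights, the 4 arrays alone, a replicate block, keeping control entries, thresholds of 0.01 and 0.1, and leaving out each array. Chosen after seeing the data were the deposited values without CIA replicate 1 and the adjuvant+MLIF arrays averaged as 1. Plots used Matplotlib 3.10.9 and Python 3.11.15.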

Additional observations from a re-analysis of the deposited data

Results flagged for a closer look

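The effect of MLIF differed between CIA and adjuvant mice, by the interaction test (limma, adjusted p under 0.05), in 5037 probe sets. All of the individually named genes are among them. They were chosen by the interaction itself or by a large change in CIA mice, which is part of it, so this follows largely from the choice. The interaction is the log2 change with MLIF in CIA mice minus that in adjuvant mice.

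It was positive in the muscle genes Trdn (2.85), Myh7 (2.39), Jph1 (2.29), Myl2 (2.25), Myl6b (2.20), Nrap (2.17), Myo18b (2.13), Tmem182 (2.05), Nexn (2.0), Mylk4 (1.96), Tnni1 (1.83), Myoz2 (1.76) and Tnnc1 (1.64), and in Srsy (2.84), Inmt (2.49), the hair gene Krtap7-1 (2.46) and the cartilage gene Cytl1 (2.07).

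It was negative in the granulocyte genes Prg2 (-3.76), S100a9 (-3.45), S100a8 (-3.24), Ifitm6 (-3.09), Retnlg (-3.00) and Mmp9 (-3.00) and in the chemokine Cxcl5 (-2.78). The stromal and bone genes followed with Cthrc1 (-3.23), Tnn (-3.19), Mmp13 (-2.97) and Atp6v0d2 (-2.63). In the skin genes it was -3.06 for Far2, -3.05 for Krt71, -3.03 for Flg2, -2.90 for Sdr16c6, -2.76 for Elovl3, -2.74 for Krt25 and -2.47 for Sprr1a. Most of these skin genes lay under the control level in both adjuvant groups, so a fall with MLIF could not be measured there.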

How the results depend on the processing

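All 30 largest changes and the 12 largest interactions kept their direction and passed in every setting that held them; 5 were not among the probe sets left without the dimmest tercile. The count of 7089 probe sets was 4257 on the deposited values, 4198 with array weights, 3627 in the fit of the 4 arrays alone, 3682 at a threshold of 0.01 and 4737 to 8504 without 1 array; of the 7089, 3586, 4198 and 3621 passed again in the same direction under the first 3. Rises numbered 2053 when averaged per gene, 2114 with array weights, 1864 with the 4 arrays alone and 1877 at 0.01; falls numbered 942 on the deposited values, 2084, 1763 and 1805 in the latter 3, and 2450 to 4444 without 1 array, the fewest without CIA+MLIF replicate 1. The deposited values without CIA replicate 1 gave 3170 rises and 2595 falls, and centring 3479 and 3505. The interaction count of 5037 was 2095 on the deposited values, 2298 with the adjuvant+MLIF arrays averaged as 1, 2373 at 0.01 and 2319 to 6843 without 1 array. In adjuvant mice the 365 became 0 on the deposited values or with those arrays averaged (1107 and 1235 at an unadjusted p under 0.05, limma), 4 per gene, 20 with control entries kept, 16 at 0.01, 613 at 0.1, 1303 with array weights and 0 to 578 without 1 array. The cause was not tested.

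A replicate block gave 7090 calls in CIA mice (6712 of the 7089 again), 5003 interactions and 432 calls in adjuvant mice; the deviations of same-numbered arrays correlated at 0.01 between CIA and CIA+MLIF, at 0.302 between adjuvant and CIA+MLIF and at 0 to 0.038 between the other groups, and no label says that a number marks a shared litter or day, so the numbers were not taken to pair the arrays.

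Some genes that did not pass changed sign. On the deposited values Acan was at 0.13, Btg2 at 0.04, Cd4 at 0.10 and Foxp3 at 0.24; after centring Foxp3 was at 0.02, Fosb at -0.03, Csf1r at 0.00, Krt9 at -0.08 and Prg4 at -0.14; on the deposited values without CIA replicate 1 Foxp3 was at 0.12, Krt9 at -0.07 and Mir17 at 0.06. Without 1 array Acan ran from -0.11 to 0.06, Comp from -0.06 to 0.03, Fosb from -0.04 to 0.17, Foxp3 from -0.18 to 0.09, Il17a from -0.11 to 0.19, Mmp7 from -0.10 to 0.11 and Mmp20 from -0.07 to 0.17.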

Other observations

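Endothelial genes fell in 11 of 21 and rose in 1, Lyve1, described above with the macrophages; Pdpn (-0.92), Emcn (-0.62), Eng (-0.60) and Cdh5 (-0.55) fell. Of these genes 1 fell on the deposited values, 7 with array weights, 5 in the fit of the 4 arrays alone, and 7 without CIA+MLIF replicate 1, CIA replicate 1 or either adjuvant+MLIF replicate. Of 13 erythroid and platelet genes 8 fell (5 on the deposited values and in the fit of the 4 arrays alone), among them the red cell anion exchanger Slc4a1 (-1.55) and Rhag (-1.68). Of 21 cathepsin and lysosome genes 14 fell (7 on the deposited values, 8 in the fit of the 4 arrays alone), with the pump subunit Atp6v1a at -0.98 and Hexa at -0.95. Casp4 (-1.20), a caspase of inflammatory cell death, and Casp8 (-0.88) were the lowest of 18 apoptosis genes, of which 7 fell and 1 rose (2 fell on the deposited values, 4 with array weights and 3 in the fit of the 4 arrays alone).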
